A study of Homo sapiens with 9 samples.

Results

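This account covers EGR1 occupancy at 8 growth factor loci of human fibroblasts: the epidermal growth factor (EGF) receptor ligands HBEGF, TGFA, EREG and AREG, the receptor EGFR, the platelet-derived growth factor (PDGF) genes PDGFA and PDGFB, and the vascular growth factor gene VEGFA. A peak belonged to a locus when its summit lay in a fixed hg19 window around the gene. The windows held 21 of the 16285 peaks listed after induction of BRAF V600E and 19 of the 12340 listed after induction with clobetasol. In Mb of hg19 they were HBEGF on chromosome 5 at 139.69 to 139.75, TGFA on chromosome 2 at 70.65 to 70.81, EREG and AREG on chromosome 4 at 75.21 to 75.28 and 75.29 to 75.34, and EGFR on chromosome 7 at 55.06 to 55.30. The remaining windows were PDGFA on chromosome 7 at 0.51 to 0.59, PDGFB on chromosome 22 at 39.60 to 39.67, and VEGFA on chromosome 6 at 43.71 to 43.78.

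EGR1 was profiled by chromatin immunoprecipitation and sequencing (ChIP-seq) in BJ-hTert-B-RAF-V600E cells, one telomerase-immortalised fibroblast line that carries a doxycycline-inducible B-RAF V600E oncogene in every group. Of 9 libraries, 3 came from proliferating cells given ethanol and DMSO, and 3 from cells given doxycycline (1000 ng/mL) and DMSO. The other 3 came from cells given doxycycline (1000 ng/mL) and clobetasol (2 nM), a potent glucocorticoid. The titles of this last group also carry DMSO, and all treatments were for 24 h. The authors pooled the 3 libraries of a group before calling peaks, so each group is 1 pool, nothing below has a spread between replicates, and intervals cover counting error only. Both treated pools were called against the same proliferating pool, so their folds share a control and are set side by side only.

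EGR1 is a zinc finger transcription factor that ERK signalling induces within minutes and that binds GC-rich DNA. The EGF family ligands are made as membrane-anchored precursors, are released by metalloproteases, and activate EGFR, which signals through RAS, RAF, MEK and ERK. PDGF acts on fibroblasts and other mesenchymal cells, and VEGF-A acts mainly on endothelial cells. PDGFA, PDGFB and VEGFA have been studied as genes with EGR1 and SP1 sites in their GC-rich promoters.

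The reference promoters of the members were searched for such letters, since a site of this kind is what EGR1 reads. RefSeq sequences (GRCh38.p14, 250 bases before to 50 after a gene's start) matched 6 of the 8 members, with 11 starts in all. VEGFA and PDGFB were not matched. The EGR1 form GCGGGGGCG, searched on both strands, was found at 2 of 11 starts, both of PDGFA, and at 5.07% of the 35116 promoters of the table. The form GCGTGGGCG was found at 0 of 11 and at 0.795% of all promoters. The SP1-like letters GGGCGG overlap the G-rich EGR1 form where GG precedes it or a G follows it. These letters were found at 8 of 11 starts, HBEGF, TGFA, AREG, EGFR and PDGFA included, and at 45.0% of all promoters. The AP-1 letters TGANTCA were found at 1 start of EGFR and at 7.71% of all promoters. The stretches below are the 250 bases before 2 PDGFA starts, which hold the EGR1 form, and before the HBEGF start, which holds only GGGCGG. They are written 5′ to 3′ on the gene's strand, the minus strand for both genes, with matches in capitals (GCGGGGGCG for PDGFA, GGGCGG or its complement for HBEGF).
PDGFA start 1, GRCh38 chr7:520227-520476: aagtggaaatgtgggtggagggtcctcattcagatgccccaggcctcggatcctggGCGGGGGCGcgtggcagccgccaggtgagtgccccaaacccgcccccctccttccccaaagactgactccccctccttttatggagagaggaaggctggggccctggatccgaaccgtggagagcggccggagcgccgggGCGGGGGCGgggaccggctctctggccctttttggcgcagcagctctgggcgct
PDGFA start 2, GRCh38 chr7:519847-520096: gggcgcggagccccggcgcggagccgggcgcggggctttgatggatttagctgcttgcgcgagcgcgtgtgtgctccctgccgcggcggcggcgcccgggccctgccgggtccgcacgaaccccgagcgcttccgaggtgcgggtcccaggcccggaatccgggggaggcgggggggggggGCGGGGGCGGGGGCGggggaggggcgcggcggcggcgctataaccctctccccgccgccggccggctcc
HBEGF start, GRCh38 chr5:140346604-140346853: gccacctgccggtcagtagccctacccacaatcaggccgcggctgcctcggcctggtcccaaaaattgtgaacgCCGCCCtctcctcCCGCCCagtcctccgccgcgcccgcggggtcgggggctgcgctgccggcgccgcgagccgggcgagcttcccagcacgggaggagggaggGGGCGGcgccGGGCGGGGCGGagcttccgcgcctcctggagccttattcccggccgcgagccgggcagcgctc
Counting the last base before the start as -1, the matches began at -194 and -54 before the first of these PDGFA starts, and at -69 and -63 before the second, where they overlap in 1 GC-rich run. A match describes letters only. The peaks are in hg19 and no hg19 genome or annotation was used here, so the peaks were not placed on these sequences, and whether a peak lies at a start, in an exon or in an intron is not given.

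The first comparison asked at which of these loci EGR1 occupancy was above that of proliferating cells once BRAF V600E was induced. Peaks were listed in 7 of the 8 windows: 5 at PDGFA, 4 each at EGFR and PDGFB, 3 each at HBEGF and VEGFA, 1 each at EREG and AREG, and none at TGFA. As background, tiles of the same widths along chromosomes 1 to 22 and X held an induced summit in 18.1% (50 kb), 20.8% (60 kb), 23.1% (70 kb), 25.5% (80 kb), 38.8% (160 kb) and 47.2% (240 kb) of cases. Those tiles include gene-free stretches, so they are a description and not a matched set. The fold of a peak is the authors' ratio of treated to local control signal at the summit. It ran from 2.00 to 5.15 over the 21 peaks, with a median of 3.63 beside 3.64 for the whole list. The listed −log10 q exceeded the median of the list at 8 of the 21 and the fold did at 10. The members thus stood near the middle of the list in fold and lower in q, with a median −log10 q of 10.9 beside 14.9.

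In the second comparison, of induced cells given clobetasol with proliferating cells, the same 7 windows held peaks: 5 at EGFR, 4 at PDGFA, 3 at HBEGF, 2 each at EREG, PDGFB and VEGFA, and 1 at AREG. Tiles held a clobetasol summit in 14.9% (50 kb), 17.2% (60 kb), 19.4% (70 kb), 21.5% (80 kb), 34.3% (160 kb) and 42.9% (240 kb) of cases. Folds ran from 2.38 to 4.41, with a median of 3.16, equal to that of the whole list at 3 significant digits. TGFA, which encodes the ligand most like EGF itself, was again without a peak.

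Of the 21 induced peaks, 16 overlapped a clobetasol peak by at least 1 bp (76.2%, exact 95% interval 52.8 to 91.8, beside 64.0% over the list). Those 16 were 84.2% of the 19 clobetasol peaks, beside 86.4% over that list. The interval treats the 21 peaks as independent, but peaks in 1 window are neighbours and not independent. The shares are thus a description, and their differences from the whole lists were not tested. With the 5 peaks listed only after induction and the 3 listed only with clobetasol, the windows held 24 sites, numbered below by position within each gene. Fragments at each summit were recovered from the listed fold and p-value. The clobetasol pool was 1.21 times as deep as the induced pool, and its fragments were divided by that ratio where they are called depth-scaled.

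**Figure D1:**
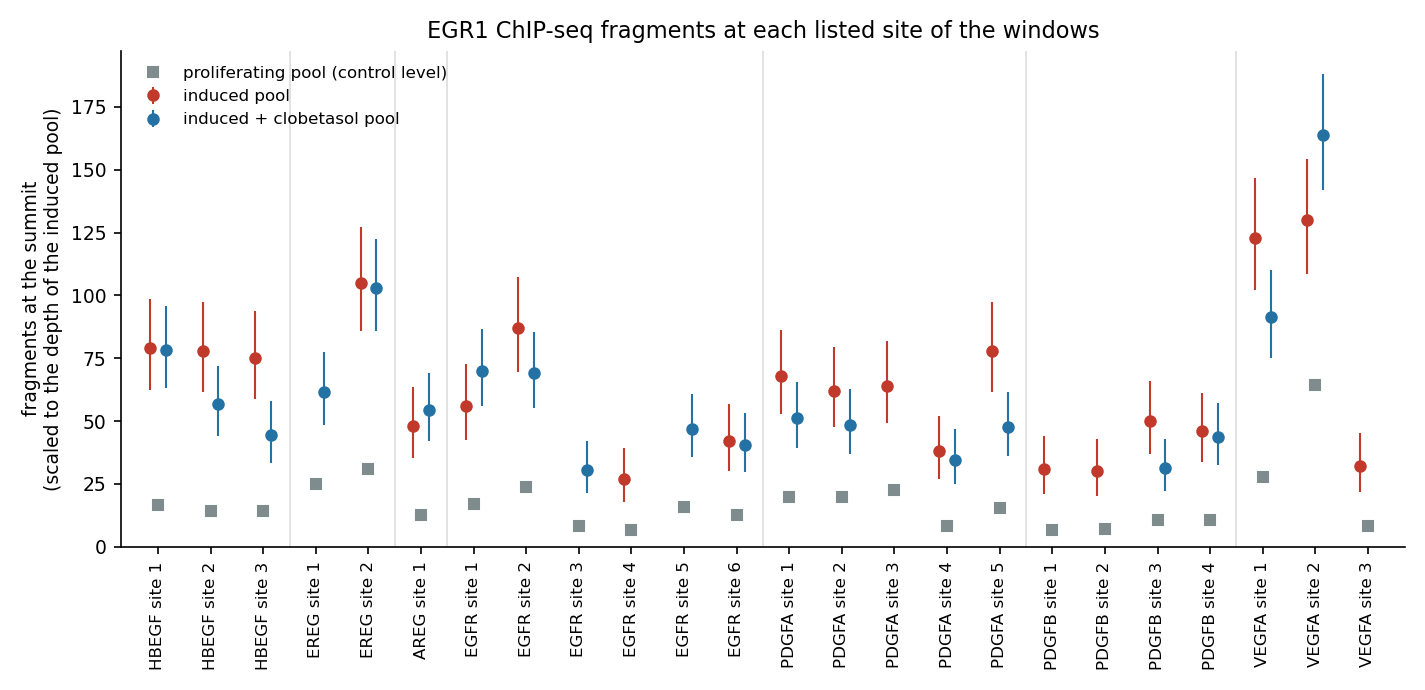
Fragments at the summit of each of the 24 sites (horizontal axis) in the induced pool (red) and the induced + clobetasol pool (blue), with the control level of the proliferating pool (grey squares), all scaled to the depth of the induced pool. Bars are exact 95% Poisson intervals. VEGFA sites 1 and 2 hold the most fragments, 123 and 130 after induction, and the control level is highest at VEGFA site 2.

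HBEGF encodes heparin-binding EGF-like growth factor, an EGFR ligand that is also the receptor for diphtheria toxin. Its 3 sites had induced folds of 4.56, 5.15 and 4.95, all among the 4 highest of the 21. Site 1 (chromosome 5, 139704299 to 139704741) held 79 induced fragments over a scaled proliferating level of 16.5, and 95 with clobetasol, or 78.2 depth-scaled. Site 2 (139724251 to 139724654) held 78 over a level of 14.3, and 69 with clobetasol, or 56.8 depth-scaled. Site 3 (139725706 to 139726467) held 75 over a level of 14.3, and 54 with clobetasol, or 44.5 depth-scaled.

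The HBEGF sites thus had like folds after induction, while the listed folds with clobetasol were 4.41, 4.10 and 2.38. The depth-scaled ratio of clobetasol to induced fragments was 0.990 at site 1 (exact 95% interval 0.727 to 1.35), 0.728 at site 2 (0.519 to 1.02) and 0.593 at site 3 (0.410 to 0.852). The intervals of sites 1 and 3 overlap, and the difference between them was not tested. Site 3 passed the exact binomial test against equal depth-scaled fragments (adjusted p = 0.0223, Benjamini-Hochberg over the 10429 shared peaks). At site 3 the summits of the pools lay 404 bp apart within 1 broad peak, so its ratio joins different positions. At the other 15 shared sites they lay within 40 bp. Sites 2 and 3 were neighbours, with induced summits 1831 bp apart, while site 1 lay 19940 bp from site 2.

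EREG and AREG, neighbours on chromosome 4, encode epiregulin and amphiregulin. The strong EREG site, site 2 (75240294 to 75240568), held 105 induced fragments over a level of 30.9, a fold of 3.32, and 125 with clobetasol, a fold of 3.16. Its depth-scaled ratio was 0.980 (0.750 to 1.28). The AREG site (75310641 to 75311130) held 48 induced fragments over a level of 12.7, a fold of 3.58, and 66 with clobetasol, a fold of 4.08. Its ratio was 1.13 (0.769 to 1.68). Neither of these shared sites therefore showed a change with clobetasol beyond counting error, although the AREG interval spans values from a decrease to a clear increase. A further EREG site, site 1 (75230423 to 75230658), was listed only with clobetasol, with 75 fragments and a fold of 2.44, and has no ratio.

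TGFA, which encodes transforming growth factor alpha, was the only member without a peak in either list. The nearest induced peaks were at chromosome 2, 70529019 to 70529411 (fold 5.59), and 71127480 to 71127902 (fold 4.66), with 598 kb between them. The clobetasol list left the same stretch empty. The authors' peak numbers run in genome order and have gaps, so they show how many calls were numbered but not listed. Over that stretch the induced list lacks 6 numbers, and the clobetasol list lacks 0. Up to 6 calls were therefore numbered there after induction and left out of the list, and none with clobetasol.

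EGFR encodes the receptor for all 4 of these ligands. Its most significant induced site, site 2 (chromosome 7, 55086400 to 55087880), was 1481 bp wide, wider than 98.1% of the list, and held 87 fragments over a level of 23.7, a fold of 3.56. With clobetasol it held 84, or 69.2 depth-scaled, in a peak of 852 bp with a fold of 2.85. The ratio was 0.795 (0.582 to 1.09), close to the median of all shared peaks given below.

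The outer EGFR sites had higher ratios than site 2, with overlapping intervals, and the differences were not tested. Site 1 (55063603 to 55063843), which lies close to the window's edge, held 56 induced fragments and 85 with clobetasol, or 69.99 depth-scaled, at a ratio of 1.25 (0.882 to 1.78), with folds of 3.15 and 3.72. Site 6 (55194570 to 55195270) held 42 and 49, at a ratio of 0.961 (0.623 to 1.49). Between these lay sites listed in 1 pool only: site 4 (55128898 to 55129313) after induction, with 27 fragments, and sites 3 (55102090 to 55102356) and 5 (55154281 to 55154868) with clobetasol, with 37 and 57. EGFR was the member with most sites in single lists, 3 of its 6, all with at most 57 fragments. It also had the widest window, 240 kb. Over the whole lists, 64.0% of induced and 86.4% of clobetasol peaks overlapped a peak of the other list, so sites in single lists were common.

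PDGFA encodes the PDGF A chain. Its 5 induced sites formed separate clusters, sites 1 to 3 within 1383 and 2300 bp of the next and sites 4 and 5 at 3632 bp from each other. Site 5 (582547 to 583285) was the strongest, with 78 induced fragments over a level of 15.4, a fold of 4.80. With clobetasol it held 58, or 47.8 depth-scaled, and the fold was 3.09. Its ratio of 0.612 (0.428 to 0.871) passed the exact binomial test (adjusted p = 0.0267).

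The other shared PDGFA sites did not pass the test, and their differences from site 5 were not tested. Site 1 (558419 to 558674) held 68 induced fragments and 62 with clobetasol, at a ratio of 0.751 (0.523 to 1.08). Site 2 (559379 to 560430), 1052 bp wide, held 62 and 59, at a ratio of 0.784 (0.539 to 1.14). Site 4 (579247 to 579631) held 38 and 42, at a ratio of 0.910 (0.573 to 1.45). All 3 intervals include 1. Site 3 (561921 to 562445), with 64 fragments and a fold of 2.75, was listed only after induction, and has no ratio.

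PDGFB encodes the PDGF B chain, the cellular counterpart of the viral sis oncogene. Its 4 induced sites were evenly spaced, 8824 to 13851 bp apart, with low counts and folds of 3.78 to 4.44. Sites 1 (chromosome 22, 39629118 to 39629574) and 2 (39637932 to 39638292), with 31 and 30 fragments, had no clobetasol peak. Site 3 (39648805 to 39649273) held 50 induced fragments and 38 with clobetasol. Its ratio of 0.626 (0.399 to 0.974) did not pass after adjustment (exact binomial test, adjusted p = 0.0987). Site 4 (39662316 to 39662965) held 46 and 53, at a ratio of 0.949 (0.627 to 1.44). PDGFB and PDGFA were thus the members with fewer listed sites with clobetasol, together with VEGFA. The first listed peak outside a window was closest at PDGFB, 9.45 kb beyond its right edge (39679452 to 39679854, fold 3.91).

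VEGFA encodes the main angiogenic growth factor. Site 1 (chromosome 6, 43736700 to 43738067) was the most significant member peak after induction (−log10 q of 36.4, above 83.0% of the list), with 123 fragments over a level of 27.6 and a fold of 4.34. With clobetasol it held 111, or 91.4 depth-scaled, with a fold of 3.31, a ratio of 0.743 (0.570 to 0.968). Site 2 (43739093 to 43739762), whose induced summit was 1411 bp away, had the lowest induced fold of all members, 2.00, with 130 fragments over a level of 64.5.

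VEGFA site 2 had a ratio above 1. It held 199 fragments with clobetasol, or 163.9 depth-scaled, its fold was 2.52 and its −log10 q went from 9.42 to 25.9. The ratio was 1.26 (1.005 to 1.58), and the intervals of these neighbouring sites do not overlap. Neither site passed the exact binomial test against equality after adjustment (adjusted p = 0.0849 for site 1 and 0.117 for site 2), and the difference between them was not tested on its own. The proliferating pool held 117 fragments at site 2 as recovered from either list. Relative to the lowest control level after induction, that of site 2 was 9.95 times as high, and no other member peak exceeded 5 times. Taken as excess over the control level, the ratio was 1.52 at site 2 and 0.675 at site 1. The part of that level in the result was not tested. Site 3 (43754449 to 43755654), 1206 bp wide with 32 fragments, was listed only after induction.

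**Figure D2:**
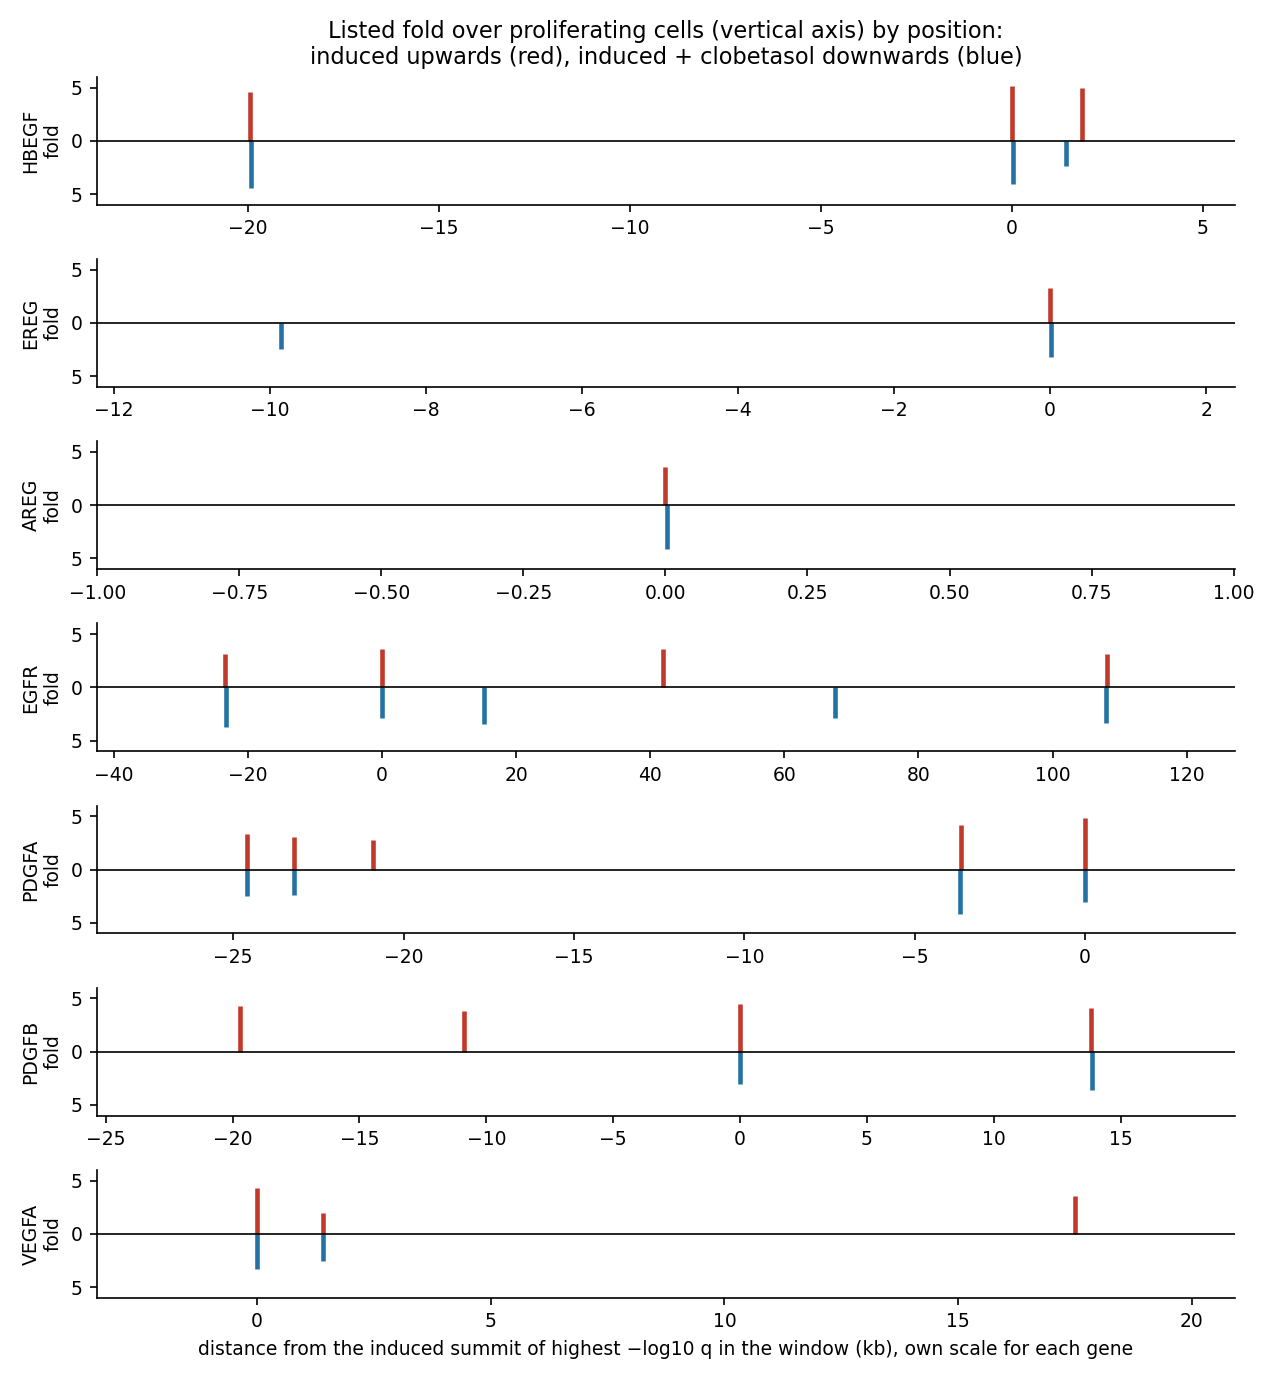
Position of the listed summits at each member with a peak, as distance in kb from the induced summit of highest −log10 q in the window, with the listed fold over proliferating cells on the vertical axis, induced upwards in red and induced + clobetasol downwards in blue. The close pairs at HBEGF, PDGFA and VEGFA are seen in both lists, and most sites present in 1 list only lie at EGFR and PDGFB.

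Set in order of induced fold, HBEGF sites 2 and 3 came first (5.15 and 4.95), then PDGFA site 5 (4.80), HBEGF site 1 (4.56) and PDGFB site 3 (4.44), and last VEGFA site 2 (2.00). The exact 95% interval of treated over scaled proliferating fragments was 3.45 to 8.83 at HBEGF site 2, 3.24 to 8.08 at PDGFA site 5 and 1.56 to 2.61 at VEGFA site 2. Of the 19 induced peaks with a whole number of proliferating fragments, VEGFA site 2 was the only one whose interval failed to overlap some others, namely those of the HBEGF sites, PDGFA site 5, PDGFB site 3 and VEGFA site 1. All other pairs of these intervals overlapped, and the differences in fold between sites were not tested. With clobetasol, HBEGF site 1 (4.41), PDGFA site 4 (4.13), HBEGF site 2 (4.10) and AREG (4.08) stood first.

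The third comparison asked how clobetasol changed EGR1 fragments at the sites listed in both pools. At the 16 shared sites of these genes the depth-scaled ratio had a median of 0.853, beside 0.799 over all 10429 shared peaks. It was below 1 at 13 of 16, beside 87.4% of all shared peaks, and above 1 at the AREG site, EGFR site 1 and VEGFA site 2. The exact binomial test called 2 of 16 lower, HBEGF site 3 and PDGFA site 5, beside 22.5% of all shared peaks, and 0 higher, beside 0.384%. At an unadjusted p under 0.05 there were 4 lower, with PDGFB site 3 and VEGFA site 1, and 1 higher, VEGFA site 2, beside 36.2% and 0.690% of all. The test compares fragments of 2 pools and not the conditions.

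Most shared peaks of the genome were lower with clobetasol, a general shift of -0.32 on the log2 scale, so each site was also compared with that shift. The interval of 14 of 16 sites included the general ratio of 0.799. Intervals lay above it at EGFR site 1 and VEGFA site 2, and at 0 sites below it. Relative to the general shift, VEGFA site 2 was 1.58 times higher with clobetasol and passed the exact binomial test (adjusted p = 0.00335), as did 2.28% of all shared peaks. EGFR site 1 was 1.56 times higher and did not pass the exact test (adjusted p = 0.164). HBEGF site 3 and PDGFA site 5 no longer passed the exact test relative to it, at 0.742 (adjusted p = 0.52) and 0.766 (adjusted p = 0.612). Their decreases were thus not distinguishable from that of shared peaks in general, 0.508% of which were called lower on this scale.

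**Figure D3:**
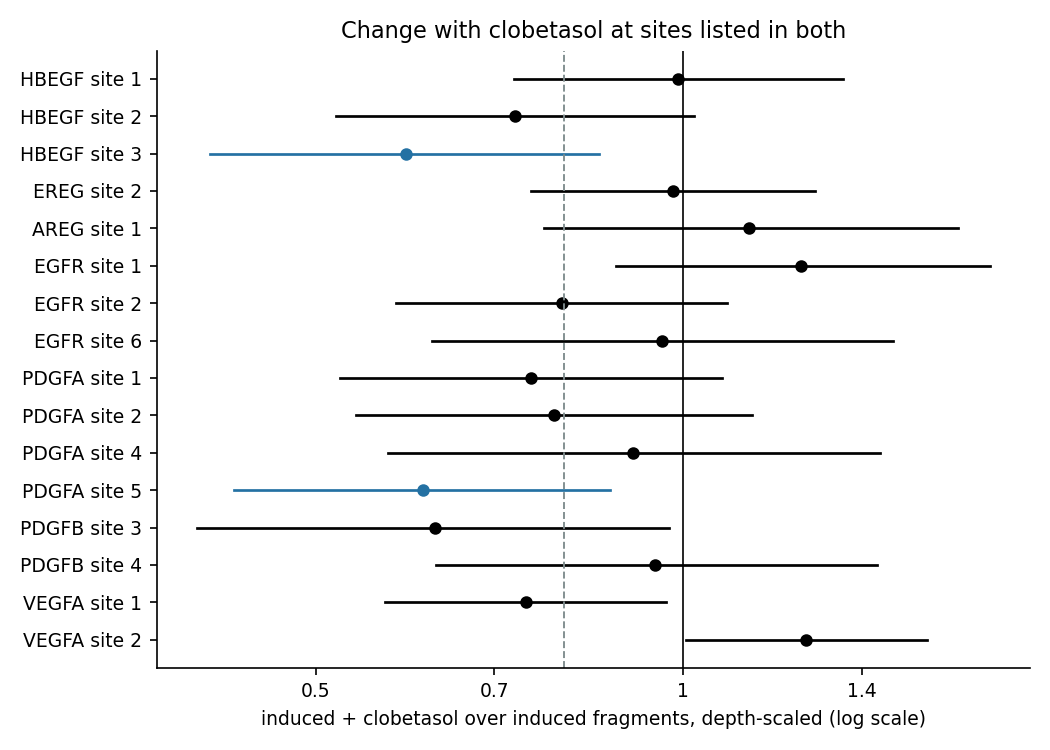
Depth-scaled ratio of fragments in the induced + clobetasol pool to the induced pool at the 16 shared sites, on a log axis, with exact 95% intervals. The solid line marks 1 and the dashed line the median of all shared peaks, 0.799. HBEGF site 3 and PDGFA site 5, in blue, passed the exact binomial test against 1, and VEGFA site 2 lies wholly to the right of both lines.

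The 8 sites of single lists held 1.05 to 1.34 times the fragments that would have listed them in the other pool. With the proliferating level unchanged, a site missing from a list needed a computable number of fragments to reach the lowest p-value listed there. The 5 sites listed only after induction needed a depth-scaled ratio of clobetasol to induced fragments of 0.744 (PDGFB site 1), 0.798 (PDGFA site 3), 0.823 (PDGFB site 2), 0.849 (VEGFA site 3) and 0.884 (EGFR site 4) to be listed. If calls were left out by p-value alone, these numbers are upper bounds of the ratio at those sites. The bound lies above the general ratio of 0.799 at PDGFB site 2, VEGFA site 3 and EGFR site 4, and below it at PDGFA site 3 and PDGFB site 1. The general ratio covers shared peaks only, so it is not a matched value for sites of single lists. These bounds make no allowance for counting error. At all 8 sites of single lists the number needed, at equal depth, lay within the exact 95% Poisson interval of the fragments held, which was 21.1 to 44.0 for the 31 fragments of PDGFB site 1.

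Likewise, the 3 sites listed only with clobetasol would have been listed after induction at 57 fragments (EREG site 1), 29 (EGFR site 3) and 43 (EGFR site 5). Their depth-scaled clobetasol fragments were 61.8, 30.5 and 46.9, only 1.08, 1.05 and 1.09 times those numbers. The lists thus set lower bounds just above 1 on the ratio at these sites, with no allowance for counting error. Whether calls above this threshold were removed for other reasons is not given in the sources used here.

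Beyond the 8 members, windows of 50 to 1200 kb were set for 17 further genes of the same pathways. They were meant to hold the gene and its flanks, but their hg19 positions were set by hand and not checked against an hg19 annotation, so a window without a peak is a statement on the window alone. Of the 17, 10 windows (58.8%) held an induced peak (27 peaks), 7 (41.2%) a clobetasol peak (21 peaks) and 6 neither. As background, tiles held an induced summit in 18.1% of cases at 50 kb and 79.4% at 1200 kb. Averaged over the widths of the 17 windows, the share of tiles was 33.8% for the induced and 30.0% for the clobetasol list, gene-free stretches included. Among the EGF family ligands, the windows of EGF, BTC and EPGN were without a peak, as that of TGFA was. Among EGFR's relatives, ERBB2 and ERBB3 held 2 and 1 induced peaks and none with clobetasol, and ERBB4 held none in its 1200 kb. Over all 17 windows, 17 of the 27 induced peaks overlapped a clobetasol peak, near the 64.0% of the whole induced list.

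PDGFRA and PDGFRB encode the PDGF receptors, which fibroblasts carry. Each held 4 induced peaks, and 4 and 3 with clobetasol. The induced PDGFRB peak of highest q (chromosome 5, 149520389 to 149520879) held 119 fragments, and 84 with clobetasol. That ratio of 0.581 (0.434 to 0.775) passed the exact binomial test at an adjusted p = 0.00258. The corresponding PDGFRA peak (chromosome 4, 55095888 to 55096778) held 140, and 110 with clobetasol. Its ratio of 0.647 (0.499 to 0.836) also passed that exact test, with an adjusted p = 0.00786. PDGFC held 2 induced and 3 clobetasol peaks, and PDGFD held only 1, with clobetasol. Its fold was 2.92.

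FGF2, the basic fibroblast growth factor gene, held the most significant induced peak of these windows (chromosome 4, 123747583 to 123748104, fold 4.98). It held 166 fragments, and 124 with clobetasol. The ratio of 0.615 (0.483 to 0.781) passed the exact binomial test with an adjusted p = 0.00119. VEGFB had 9 induced and 8 clobetasol peaks in 50 kb, VEGFC 2 and 1, and the VEGF receptor genes FLT1 and FLT4 had 1 each after induction only. The windows of KDR and PGF had none. Of the 17 shared peaks in these windows, 5 were called lower (beside 22.5% of all shared peaks) and 0 higher. Those called lower were 2 at VEGFB and 1 each at PDGFRA, PDGFRB and FGF2. Relative to the general shift, 0 of the 17 were called in either direction. On that scale the named peaks had ratios of 0.727 at PDGFRB (exact binomial test, adjusted p = 0.305), 0.77 at FGF2 (exact test, adjusted p = 0.307) and 0.81 at PDGFRA (exact test, adjusted p = 0.532). Their decreases, like those of HBEGF site 3 and PDGFA site 5, were not distinguishable from that of shared peaks in general.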

How the data were processed

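Per the submitters' processing notes, the build was hg19 and the tools included cutadapt 1.15, BWA and, as peak caller per the labels, MACS2 2.1.1.20160309. How the caller was set is not given in the sources used here. The authors pooled the 3 libraries of each group, as the peak names show. The labels give proliferating replicates 2 and 3 the same sample name, so whether that pool held 3 distinct samples is not settled. The deposited fold is a ratio at the summit, with 1 added to both levels. The deposited −log10 p and −log10 q are those of the summit, and the deposited score is derived from the q value. The lowest listed −log10 q was 5.00 in both lists. Peak numbers reach 52393 and 26677, above the numbers listed.

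Fold and −log10 p were solved for the whole treated fragments and the control level (within 0.05 of a whole number at 99.6% and 99.5% of peaks, and at all 21 and 19 member peaks). Control levels fell on multiples of 0.552 and 0.67, whose ratio gave the depth of 1.21. An exact binomial test (two-sided, Python 3.11.15, scipy 1.17.1) compared the treated pools, adjusted over all shared peaks after Benjamini and Hochberg and tested on simulated data. Windows of the 17 further genes were set by hand from known hg19 positions, and only their chromosome and gene length were checked against the reference gene table. Named were all members, every peak in their windows, and every further gene with a peak. The members, lists and tests were chosen with earlier results of these data known. Alternatives covered the threshold, windows, overlap and depth scaling. Positions are counted from 1.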

Additional observations from a re-analysis of the deposited data

How the results depend on the processing

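No paired analysis was possible because the lists hold pooled replicates only, and for the same reason no replicate could be left out. Of 91 alternative values, 62 kept the direction and call of the reported value or, for values without a test, lay within 1.5 times a count or within the exact 95% interval of a share or ratio. Of the 62, 15 are site ratios limited to pairs with summits within 100 bp. That setting cannot change a site's own ratio and can move only its adjusted p, so these values are no check of the ratio. The depth scaling mattered most. With no depth scaling, or with the median of all shared peaks set to 1, the members' median ratio reversed from 0.853 to 1.04 and 1.07, and as excess over the control level it was 0.810. In the same 2 settings the ratio passed above 1 at HBEGF site 1 (1.203 and 1.24), EREG site 2 (1.19 and 1.23), EGFR site 6 (1.17 and 1.2020), PDGFA site 4 (1.11 and 1.14) and PDGFB site 4 (1.15 and 1.19), without passing the test. The sites called lower went from 2 to 0 in both, and those called higher from 0 to 1 in both, VEGFA site 2. With only pairs whose summits lay within 100 bp, the members' median ratio was 0.910. That setting leaves out HBEGF site 3, which was called lower in the main setting. A one-sided exact binomial test called 3 lower, beside 29.8% of all shared peaks, and 0 higher, beside 0.163%. With no depth scaling, 0.710% of all shared peaks were called lower and 1.78% higher. With the median of all shared peaks set to 1, these shares were 0.508% and 2.28%. In the windows of the further genes, with that median set to 1 (a setting chosen after seeing the data), those called lower went from 5 to 0. At a −log10 q of at least 20, 6 induced and 5 clobetasol peaks remained in the windows. Of each, 100% had a peak in the other list, beside 94.5% of the whole induced list and 97.5% of the whole clobetasol list. At 10 or more, 11 clobetasol peaks remained. Counts were limited: the shared summits held 38 to 130 induced fragments, and 11 of 16 intervals of the ratio include 1. Whether greater depth would change that was not tested.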
